A study of Mus musculus with 19 samples.

Results

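The stretch described here is a run of 15 bins of 10 kb on mouse chromosome 5, chr5:29120001-29270000 in the mm9 build. It lies 330 to 470 kb above the bin that holds most of the Shh promoter, and the SBE2, SBE3 and SBE4 brain enhancers of Shh are placed there by their distance from the gene. Its members are the pairs of these 15 bins with the 215 bins that lie outside the Shh gene desert, 3225 of the 39340 bin pairs in each contact map. The rule that picks them uses position and no measured value. The desert bins on either side, 24 bins at 90 to 320 kb (near desert) and 26 bins at 480 to 730 kb (far desert), were set against the stretch with the same partner bins.

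Shh encodes a secreted signalling protein that patterns the limb bud, the neural tube and the brain. It lies beside a wide gene desert, and enhancers spread over the desert each drive it in their own tissue. SBE2, SBE3 and SBE4 are known for activity in the forebrain, and the ZRS, inside an intron of Lmbr1 at the far end of the desert, for activity in the limb bud. CTCF is a DNA-binding protein whose sites often mark the edges of contact domains, inside which enhancers and promoters meet more often than across the edge. In the RefSeq gene order of the GRCm38.p6 assembly, 0 protein-coding genes lie between Shh and Rnf32. Above Rnf32 come Lmbr1, Nom1 and Mnx1, and below Shh come Rbm33, Cnpy1 and En2.

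Capture Hi-C, which counts ligated pairs of DNA fragments within an enriched region, was made from 19 samples and deposited as 9 merged maps. The maps are wild type ES cells (strain G4), midbrain with the allele deltaCTCF i4i5ZRS (G4), wild type midbrain (C57BL/6), limb buds (G4) with deltaCTCF i4i5, deltaCTCF i4i5ZRS, deltaCTCF i4i5ZRSreg, deltaZRSreg or a homozygous Lmbr1 promoter deletion, and wild type limb buds (C57BL/6). Embryos were at E10.5, which 1 of the ES cell samples is labelled as well. By their labels the i4i5 alleles remove CTCF sites, i4i5ZRSreg joins i4i5 to ZRSreg by its name, and the extent of each deletion is not given in the sources used here. Wild type limb had 3 samples and every other group 2, all merged before deposit. Per the series design, mutant samples are technical replicates, so a mutant map stands for 1 biological sample. Titles give the same library number to 2 of the 3 limb controls. All mutants carry the G4 background and the wild type tissues C57BL/6, so strain and genotype cannot be told apart. Contact maps hold no expression values, and the tissue labels could not be checked with marker genes.

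Maps held 1177173 contacts in i4i5 limb to 3218492 in ES cells, of which 50712 to 108059 fell on members, a median of 13 to 24 per pair. Contact is given below as observed over expected: the balanced signal of a pair over the average of all equally distant pairs of that map, so that 1 is the average for that distance. Intervals in brackets are 95% counting intervals from recovered contacts. They cover counting error only and treat each contact as independent. PCR reads without molecular identifiers are not independent molecules, so the intervals may be too narrow. With 1 merged map per group they compare libraries, not conditions. No test across samples was possible. The authors' balancing gives each bin the same total, so more contact in one place goes with less in another. Before balancing, the stretch held 8.87% to 9.53% of all contact ends, and the median stretch bin stood above the median of the neighbouring desert bins by 0.64 to 0.72 on the log2 scale.

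In all 9 maps the stretch was in contact above the average for its distance with both ends of the desert, and below it with the regions beyond the upper border. Its contact with the Shh end (12 bins at -30 to 80 kb) was 1.81 in ES cells, 1.52 in midbrain i4i5ZRS, 1.52 in wild type midbrain, 1.26 in i4i5 limb, 1.39 in i4i5ZRS limb, 1.29 in i4i5ZRSreg limb, 1.38 in ZRSreg limb, 1.45 for the Lmbr1 promoter deletion and 1.43 in wild type limb. Its contact with the upper end (18 bins at 740 to 910 kb, which include the ZRS window at 830 to 870 kb) was 1.502 in ES cells, 1.32 in midbrain i4i5ZRS, 1.45 in wild type midbrain, 1.13 in i4i5 limb, 1.17 in i4i5ZRS limb, 1.19 in i4i5ZRSreg limb, 1.32 in ZRSreg limb, 1.35 for the Lmbr1 promoter deletion and 1.32 in wild type limb. ES cells were highest and i4i5 limb lowest at both ends.

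Beyond the upper border ES cells were lowest. With the upper flank, the 50 bins at 920 to 1410 kb past the upper border, the stretch had 0.459 in ES cells, 0.851 in midbrain i4i5ZRS, 0.686 in wild type midbrain, 0.820 in i4i5 limb, 0.798 in i4i5ZRS limb, 0.783 in i4i5ZRSreg limb, 0.597 in ZRSreg limb, 0.664 for the Lmbr1 promoter deletion and 0.637 in wild type limb. The 4 maps with CTCF deletions stood above the other 5, which did not overlap with them. In these 4 maps the near and far desert also had more contact with the upper flank than in wild type of the same tissue, as given below. With the lower flank, the 50 bins at -530 to -40 kb, the maps ranged less than with the upper flank, from 0.669 in midbrain i4i5ZRS to 0.804 in ZRSreg limb. The lower far bins (-990 to -540 kb) were nearer the average, from 0.828 in midbrain i4i5ZRS to 1.00 in ES cells. The upper far bins (1420 to 1800 kb) were depleted in every map, from 0.410 in ES cells to 0.641 in midbrain i4i5ZRS and i4i5 limb.

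**Figure D1:**
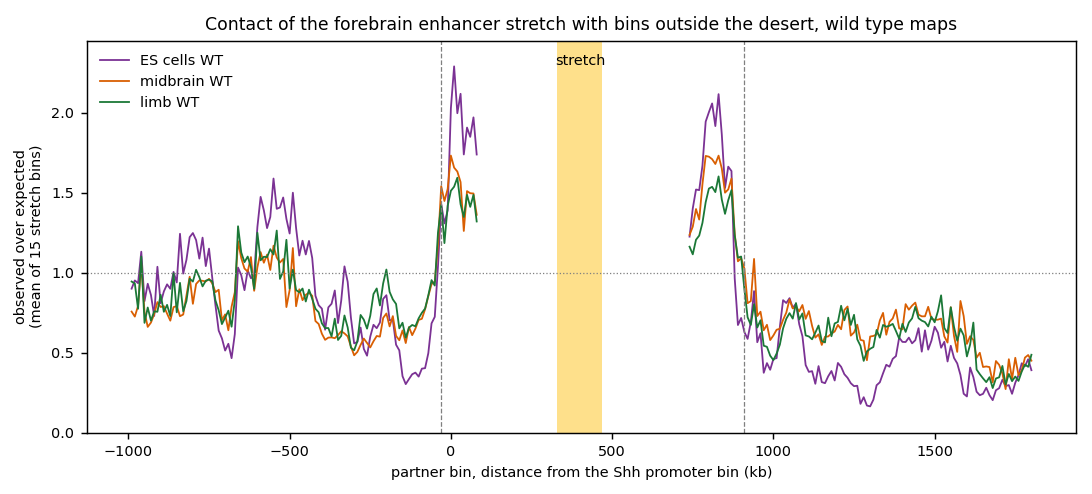
Observed over expected contact of the stretch (mean of its 15 bins) with each partner bin outside the desert, by distance from the Shh promoter bin in kb, in ES cells, wild type midbrain and wild type limb. Dashed lines mark the border bins at -30 and 910 kb, the dotted line marks 1, and contact peaks at both desert ends, at 2.29 in ES cells 10 kb above the promoter bin.

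Single partner bins, ranked at least 50 kb apart, show where these contacts concentrated. The bin at 830 kb (chr5:29620001-29630000), the first of the ZRS window, was the highest partner of the stretch in i4i5ZRSreg limb (1.46, 1.36 to 1.56), ZRSreg limb (1.66, 1.55 to 1.76), the Lmbr1 promoter deletion (1.68, 1.59 to 1.78) and wild type limb (1.60, 1.51 to 1.70). It was second in ES cells (2.12) and in wild type midbrain (1.73), and ranked 3 in i4i5ZRS limb (1.31). In midbrain the highest partner was the Shh promoter bin itself, at 1.88 (1.79 to 1.97) in i4i5ZRS and 1.73 (1.65 to 1.81) in wild type. The order in the wild type tissues was close to a tie. In wild type midbrain the 830 kb bin had 1.73 (1.62 to 1.85), and in wild type limb the bin at 20 kb had 1.59 (1.48 to 1.71). In ES cells the highest partner was the bin next to the promoter bin, 10 kb above, at 2.29 (2.21 to 2.37) from 2926 contacts. In i4i5 limb the highest partner lay at 790 kb, at 1.40 (1.28 to 1.52), and in i4i5ZRS limb at 70 kb, at 1.54. The lowest partner lay between 1670 and 1760 kb in 8 maps, for example at 1680 kb in wild type limb (0.278, 0.233 to 0.329). ES cells had theirs at 1300 kb, at 0.164 (0.118 to 0.221) from 42 contacts.

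The Shh promoter, taken as the bins at -10 and 0 kb, met the stretch at 1.71 in ES cells, 1.70 in midbrain i4i5ZRS, 1.63 in wild type midbrain, 1.23 in i4i5 limb, 1.42 in i4i5ZRS limb, 1.23 in i4i5ZRSreg limb, 1.43 in ZRSreg limb, 1.59 for the Lmbr1 promoter deletion and 1.46 in wild type limb. The 15 bins did not share this contact evenly. The bin at 440 kb (chr5:29230001-29240000) was highest of the 15 in 7 of the 9 maps, second in i4i5ZRSreg limb and 4 of 15 in ZRSreg limb. It was singled out after its values were seen. Its contact with the promoter was 2.44 (2.20 to 2.70) in ES cells, 2.68 (2.37 to 3.01) in midbrain i4i5ZRS, 2.38 (2.13 to 2.66) in wild type midbrain, 1.79 (1.53 to 2.09) in i4i5 limb, 1.87 (1.62 to 2.16) in i4i5ZRS limb, 1.49 (1.299 to 1.69) in i4i5ZRSreg limb, 1.60 (1.39 to 1.84) in ZRSreg limb, 1.87 (1.65 to 2.10) for the Lmbr1 promoter deletion and 2.16 (1.96 to 2.38) in wild type limb.

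Only in wild type limb did the 440 kb bin stand apart from both neighbours, at 430 kb (1.301, 1.13 to 1.49) and 450 kb (1.35, 1.151 to 1.57). In every other map its interval overlapped with that of an adjacent bin. In ES cells (2.36, 2.09 to 2.66) and in wild type midbrain (1.89, 1.62 to 2.20) this was the bin at 450 kb. Even in wild type limb the 440 kb bin overlapped with those at 410, 460 and 470 kb. With the promoter bin at 0 kb alone it ranked first of 15 in 7 maps, with 2.97 in ES cells and 2.51 in wild type limb. With the bin at -10 kb it ranked first in both midbrain maps and 2 to 6 in the others. With the other 10 bins of the Shh end, the same bin averaged 2.18 in ES cells, 1.68 in midbrain i4i5ZRS, 1.56 in wild type midbrain and 1.59 in wild type limb. It ranked 1, 2, 7 and 4 of 15 there, so in both wild type tissues it did not lead outside the promoter bins. Before balancing, the 440 kb bin held 1.146 to 1.26 times the contacts of the median stretch bin, and it was the best covered of the 15 in ES cells, wild type midbrain, i4i5 limb and wild type limb. The part of coverage in its rank was not tested.

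**Figure D2:**
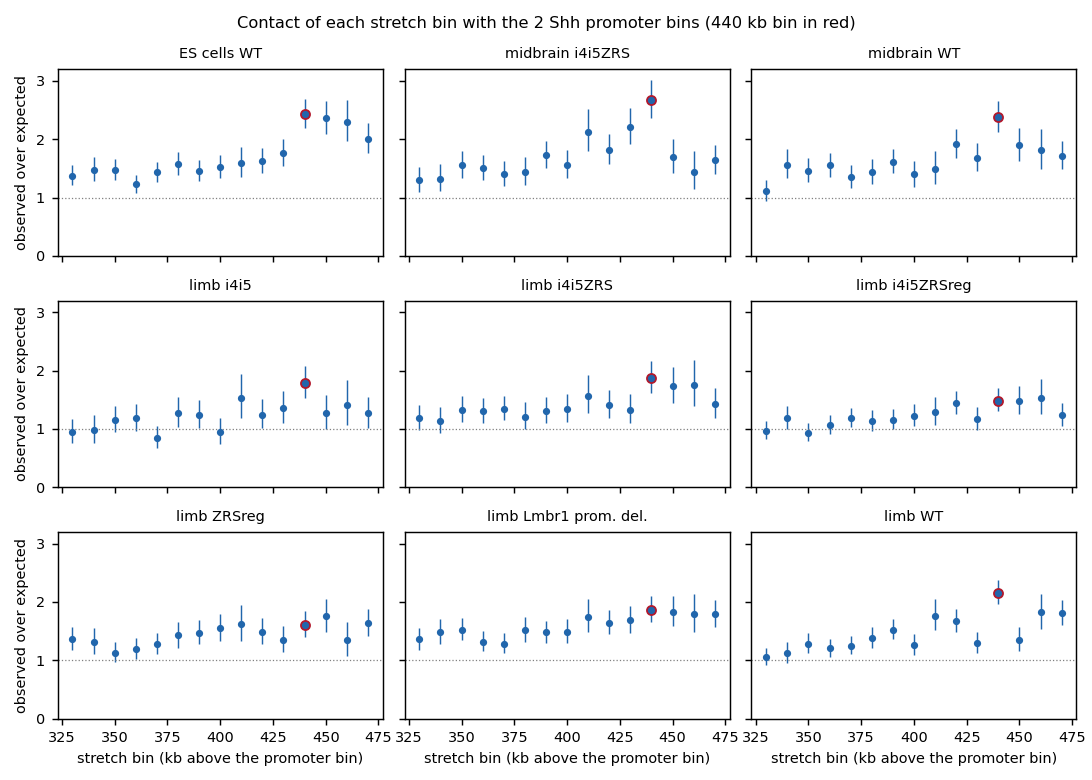
Observed over expected contact of each of the 15 stretch bins (x axis, kb above the promoter bin) with the 2 Shh promoter bins, 1 panel per map, with 95% counting intervals. The bin at 440 kb is ringed in red; it reaches 2.68 in midbrain i4i5ZRS and 2.16 in wild type limb, and in wild type limb the upper 7 bins average 1.70 and the lower 8 bins 1.26.

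Along the stretch, contact changed with position in the same way in every map. The upper 7 bins (410 to 470 kb) met the Shh end more than the lower 8 bins (330 to 400 kb), by 0.29 to 0.36 on the log2 scale over the 9 maps. With the promoter bins alone this difference was 0.20 to 0.48. With the upper end it ran the other way, from -0.11 to -0.04. The lower flank followed the Shh end (0.10 to 0.17), and the upper flank showed little slope (-0.08 to 0.04). In distance-scaled terms each end of the stretch thus met the farther end of the desert more.

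Compared with the desert on either side, the stretch was intermediate at the ends. In wild type limb its contact with the Shh end, 1.43, lay between 0.982 for the near desert and 2.20 for the far desert. Its contact with the ZRS window, 1.48, lay between 1.86 and 1.10. The same order held in wild type midbrain for the ZRS window, with 1.60 for the stretch, 2.08 for the near desert and 1.146 for the far desert. It held in ES cells too, with 1.76, 2.24 and 1.16. Position in the domain and any other property of the bins cannot be told apart in these orders.

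Midbrain was set against limb to compare the stretch in a brain tissue and in the limb; the labelled tissue is midbrain, not forebrain. The ratios between the wild type maps were small. Contact with the Shh promoter was 1.63 in midbrain and 1.46 in limb, a log2 ratio of 0.15 (0.08 to 0.22), and 12 of the 15 stretch bins were higher in midbrain. The promoter ratio was no smaller on either side: 0.19 in the near desert, with 21 of 24 bins higher, and 0.21 in the far desert, with 21 of 26. Contact with the ZRS window was 1.60 in midbrain and 1.48 in limb, a log2 ratio of 0.11 (0.06 to 0.17). The near desert had 0.16 with this window and the far desert 0.06. The upper flank stood at 0.686 in midbrain and 0.637 in limb (log2 ratio 0.10, 0.07 to 0.14). The lower flank was 0.713 in midbrain and 0.786 in limb (log2 ratio -0.14, -0.17 to -0.11), with all 15 stretch bins lower.

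Per partner bin, a difference past 1.3-fold was counted as a call. Of the 215 partner bins, 7 were higher and 10 lower in midbrain than in limb, 3.26% and 4.65%. Over all 40766 stripes of 15 by 1 bins at like separations, 3.16% were higher and 4.26% lower, so the members' counts were near the background. Scaled by the map-wide mean, 0 were higher and 17 lower, and past 1.5-fold the count of both directions was 2. All 7 higher bins lay above the upper border and all 10 lower ones below the lower border. The bin at 1640 kb had the largest rise (0.499 in midbrain from 131 contacts, 0.365 in limb from 143, log2 ratio 0.45). The bin at 940 kb, just past the upper border, had 1.09 in midbrain and 0.803 in limb (log2 ratio 0.44, 0.20 to 0.67). The largest fall was at -510 kb, with 0.785 in midbrain from 71 contacts and 1.21 in limb from 179 (log2 ratio -0.62, -1.04 to -0.22). The upper flank ratio was smaller than that of the near desert (0.16) and larger than that of the far desert (-0.04), with differences of -0.06 (-0.10 to -0.01) and 0.14 (0.10 to 0.18). It fell to 0.03 (log2) when signal was scaled by each map's overall mean with no separation term, where the median of all stripes moved to -0.10.

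ES cells, an undifferentiated state, were set against limb. In ES cells the stretch had more contact with both ends of its domain and less beyond the upper border. Contact with the Shh end was 1.81 in ES cells and 1.43 in limb, a log2 ratio of 0.34 (0.31 to 0.37), and all 15 stretch bins were higher. The desert on either side rose there too, by 0.26 in the near desert (23 of 24 bins higher) and 0.23 in the far desert (26 of 26). Contact with the Shh promoter was 1.71 in ES cells and 1.46 in limb (log2 ratio 0.22, 0.16 to 0.29), but its 2 bins did not move together. The bin at 0 kb had 2.03 in ES cells and 1.51 in limb, and the bin at -10 kb had 1.39 in ES cells and 1.42 in limb. With the promoter the near desert had a log2 ratio of 0.29 and the far desert 0.34, so the stretch did not exceed them. Contact with the ZRS window was 1.76 in ES cells and 1.48 in limb (log2 ratio 0.25, 0.20 to 0.30). The near desert had 0.27 with this window and the far desert 0.08.

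Past the upper border all 15 stretch bins were lower in ES cells. The upper flank stood at 0.459 in ES cells and 0.637 in limb, a log2 ratio of -0.47 (-0.51 to -0.44), between -0.59 at the stretch bin at 330 kb and -0.37 at 470 kb. The upper far bins stood at 0.410 in ES cells and 0.532 in limb, a log2 ratio of -0.38 (-0.43 to -0.32). The bin at 1300 kb fell most: 0.164 in ES cells from 42 contacts and 0.524 in limb from 202, a log2 ratio of -1.68 (-2.19 to -1.19). Falls followed at 1250 kb (0.290 in ES cells and 0.736 in limb) and at 1590 kb (0.243 in ES cells and 0.608 in limb, 24 and 91 contacts). Below the domain there was no such loss, with 0.782 in ES cells and 0.786 in limb at the lower flank and 1.00 in ES cells and 0.920 in limb at the lower far bins. Single bins there moved both ways, and the bin at -490 kb had 1.5 in ES cells and 1.02 in limb (log2 ratio 0.56, 0.29 to 0.83).

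Of the 215 partner bins, 32 were higher and 69 lower in ES cells, 14.9% and 32.1%, against a background of 8.47% and 21.4% of all stripes. Scaled by the map-wide mean, 2 were higher and 151 lower, and past 1.5-fold the count of both directions was 44. Of the 69, 48 lay above the upper border and 30 in the upper flank. Among all windows inside the domain, 58.8% of stripes with the upper flank were called lower, close to 30 of 50 for the stretch. The upper flank ratio of -0.47 exceeded in size that of the near desert (-0.23, difference -0.24, -0.29 to -0.19) and slightly that of the far desert (-0.42, difference -0.06, -0.10 to -0.02). At the upper far bins the stretch, at -0.38, differed from both sides of the desert, each at -0.14, by -0.24 (-0.31 to -0.16) and -0.24 (-0.31 to -0.17). Set against wild type midbrain the upper flank ratio of ES cells was -0.58 (-0.62 to -0.54). ES cells share strain G4 with the mutants, and strain and tissue cannot be told apart here. Scaled by the map-wide mean, the median log2 ratio of all stripes to limb was -0.54, in place of -0.03, the upper flank ratio became -0.86, and that of the lower far bins turned to -0.57.

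**Figure D3:**
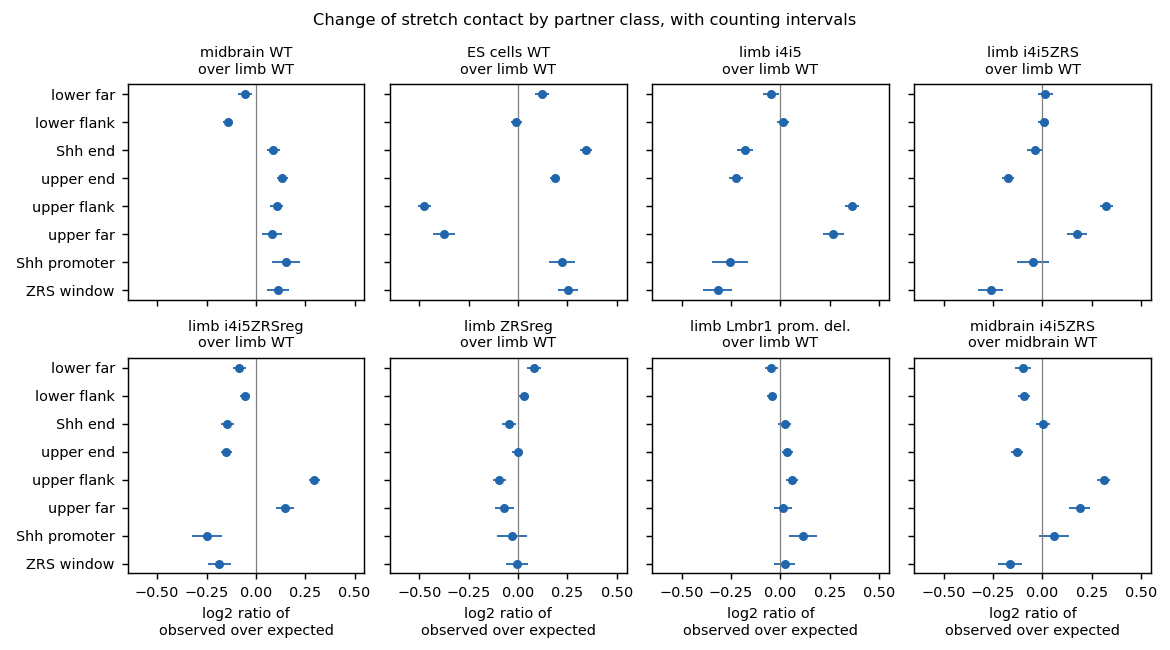
Log2 ratio of observed over expected contact between the stretch and each partner class, 1 panel per comparison, with 95% counting intervals; classes run down the page and 0 is the grey line. Upper flank points lie at 0.30 to 0.36 in the 4 comparisons of CTCF deletions with wild type, and at -0.47 for ES cells over limb.

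The CTCF deletions address the upper edge of the domain. In all 3 limb maps with such deletions the stretch had more contact with the upper flank and less with the upper end. The upper flank stood at 0.820 in i4i5 and 0.637 in wild type, with a log2 ratio of 0.36 (0.33 to 0.40). It stood at 0.798 in i4i5ZRS (log2 ratio 0.32, 0.29 to 0.36) and at 0.783 in i4i5ZRSreg (log2 ratio 0.30, 0.27 to 0.33). All 15 stretch bins were higher in each of these maps, and of the 50 upper flank bins 50, 48 and 49 were higher. The gain in i4i5 ranged from 0.23 at the stretch bin at 390 kb to 0.48 at 460 kb. The upper far bins gained less, with log2 ratios of 0.27 (0.22 to 0.32) in i4i5, 0.17 (0.12 to 0.22) in i4i5ZRS and 0.15 (0.10 to 0.19) in i4i5ZRSreg. The desert on either side gained no less with the upper far bins. In the same order of maps the near desert had 0.29, 0.21 and 0.18, and the far desert 0.38, 0.25 and 0.33.

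Inside the border contact was lower. The upper end stood at 1.13 in i4i5, 1.17 in i4i5ZRS and 1.19 in i4i5ZRSreg, against 1.32 in wild type, with log2 ratios of -0.22 (-0.26 to -0.19), -0.17 (-0.21 to -0.14) and -0.15 (-0.18 to -0.12). The ZRS window stood at 1.19 in i4i5, a log2 ratio to wild type of -0.32 (-0.39 to -0.24). It stood at 1.23 in i4i5ZRS (-0.26, -0.33 to -0.20) and 1.301 in i4i5ZRSreg (-0.18, -0.24 to -0.13), against 1.48 in wild type. Its 5 bins were lower in each of the 3 maps. With the ZRS window the near desert lost as well, with -0.35 in i4i5, -0.25 in i4i5ZRS and -0.21 in i4i5ZRSreg. The far desert had -0.10, -0.04 and -0.06. At the other end of the desert, contact with the Shh promoter was 1.23 in i4i5 (log2 ratio -0.26, -0.35 to -0.17) and 1.23 in i4i5ZRSreg (-0.25, -0.32 to -0.17), against 1.46 in wild type. In i4i5ZRS it was 1.42, and its log2 ratio of -0.05 (-0.13 to 0.03) included 0. The desert on either side had lower promoter contact too, with -0.19 (near) and -0.22 (far) in i4i5 and -0.14 (near) and -0.22 (far) in i4i5ZRSreg. In i4i5ZRS the near desert had -0.07 and the far desert 0.03. The ratio of i4i5ZRS to i4i5 at the promoter was 0.21 (0.11 to 0.31), from 1946 and 1384 contacts, and it turned to -0.06 with map-wide scaling. The lower flank showed small ratios, 0.01 in i4i5, 0.01 in i4i5ZRS and -0.05 in i4i5ZRSreg.

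The partner bins with the largest ratios lay past the upper border. In i4i5 the bin at 1760 kb had the largest ratio, 0.91 (0.24 to 1.59), from 38 contacts in i4i5 and 40 in wild type. Next came 1150 kb, with 0.855 in i4i5 from 293 contacts and 0.572 in wild type from 419 (log2 ratio 0.58, 0.36 to 0.80). In i4i5ZRS the bin at 940 kb, 30 kb past the border bin, had 1.299 against 0.803 in wild type (log2 ratio 0.69, 0.47 to 0.92). In i4i5ZRSreg it was 930 kb, with 1.00 against 0.673 in wild type (log2 ratio 0.58, 0.40 to 0.76). The lowest ratios in i4i5 lay at -300 kb (0.385 against 0.514 in wild type), 20 kb (1.21 against 1.59 in wild type) and 830 kb (1.22 against 1.60 in wild type). In i4i5ZRS the lowest lay at 810 kb (1.23 against 1.54 in wild type). In i4i5ZRSreg the 3 lowest lay below the domain, led by -960 kb with 78 contacts against 101 in wild type.

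**Figure D4:**
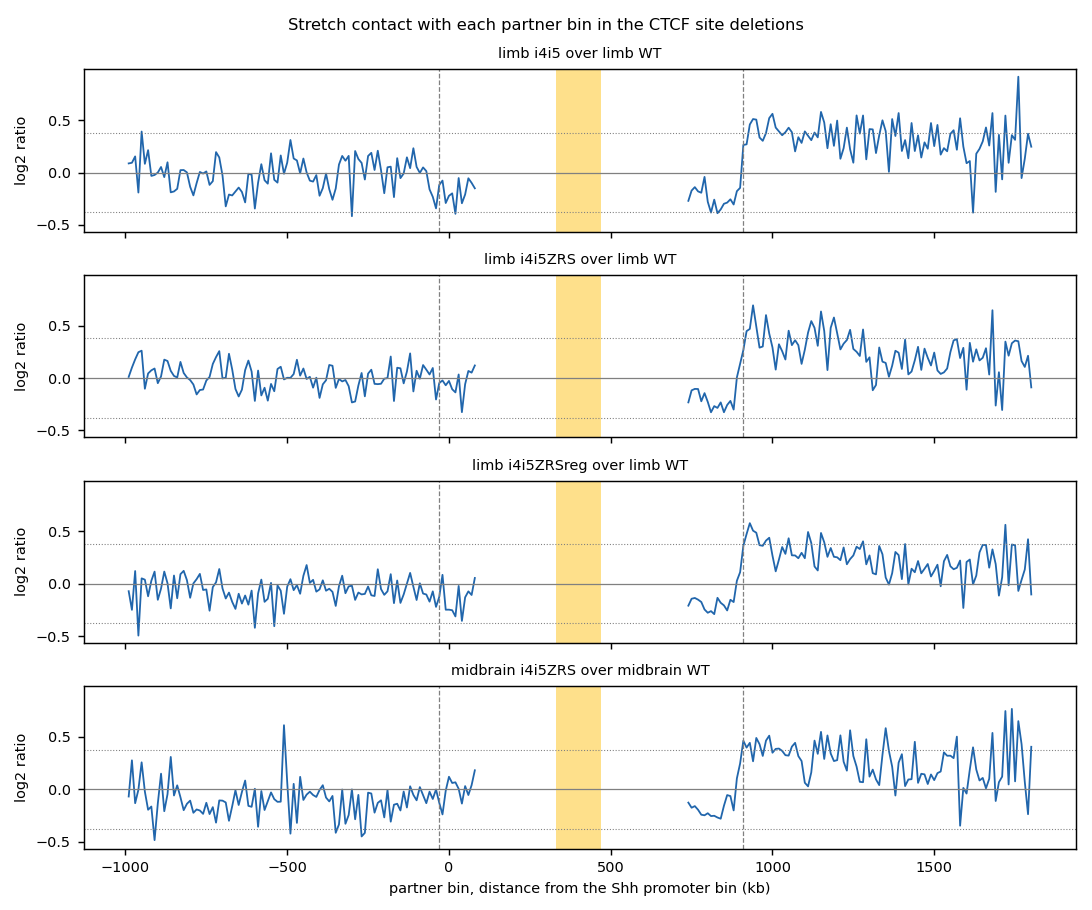
Log2 ratio of stretch contact with each partner bin, by distance from the Shh promoter bin in kb, for the 4 CTCF deletion maps over the wild type map of the same tissue. Dashed lines mark the border bins at -30 and 910 kb, dotted lines mark 1.3-fold either way, and the line steps up at the upper border in all 4 panels.

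Calls past 1.3-fold gave 35 partner bins higher and 5 lower in i4i5, against a background of 13.7% and 5.83% of all stripes. In i4i5ZRS 18 were higher and 0 lower (background 10.3% and 5.34%). In i4i5ZRSreg 15 were higher and 3 lower (background 9.3% and 4.18%). The upper flank held 25, 17 and 13 of the higher bins. Of all windows inside the domain, 43.6%, 33.5% and 28.6% of stripes with the upper flank were called higher in the same 3 maps, so 25, 17 and 13 of 50 are close to what the domain as a whole showed. These counts depended on the processing. At 1.5-fold the counts of calls in both directions were 1, 4 and 0. Scaled by the map-wide mean, 85 bins were higher and 0 lower in i4i5, 6 higher and 12 lower in i4i5ZRS, and 28 higher and 1 lower in i4i5ZRSreg. For i4i5ZRS the count of both directions, 18, was 30 with 9 stretch bins, 32 with counts thinned to the shallowest map, 38 with counts that were not balanced, 37 with the median over stretch bins, 35 against the ZRSreg map and 10 with a median expected value. For i4i5ZRSreg, also 18, it was 28 with thinned counts, 36 against the ZRSreg map and 11 against the map of the Lmbr1 promoter deletion.

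The near desert gained 0.28, 0.30 and 0.25 with the upper flank in these 3 maps and the far desert 0.42, 0.33 and 0.35. In i4i5 the stretch differed from the near desert by 0.09 (0.04 to 0.13) and from the far desert by -0.05 (-0.10 to -0.01). At the upper end the log2 ratio of the stretch differed from that of the far desert by -0.14 (-0.18 to -0.10) in i4i5, -0.16 (-0.20 to -0.12) in i4i5ZRS and -0.11 (-0.15 to -0.08) in i4i5ZRSreg, a larger loss in the stretch. From the near desert, whose ratios there were -0.26, -0.20 and -0.22, it differed by 0.04 (-0.01 to 0.08) in i4i5, 0.02 (-0.02 to 0.07) in i4i5ZRS and 0.07 (0.03 to 0.11) in i4i5ZRSreg, so the loss was not larger than in the near desert. The G4 limb maps with no CTCF deletion had upper flank log2 ratios to wild type of -0.10 in ZRSreg and 0.06 in the Lmbr1 promoter deletion. With the median in place of the mean as the expected value, the gains were smaller, 0.21 in i4i5, 0.21 in i4i5ZRS and 0.17 in i4i5ZRSreg, and with map-wide scaling that of i4i5ZRS was 0.19.

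**Figure D5:**
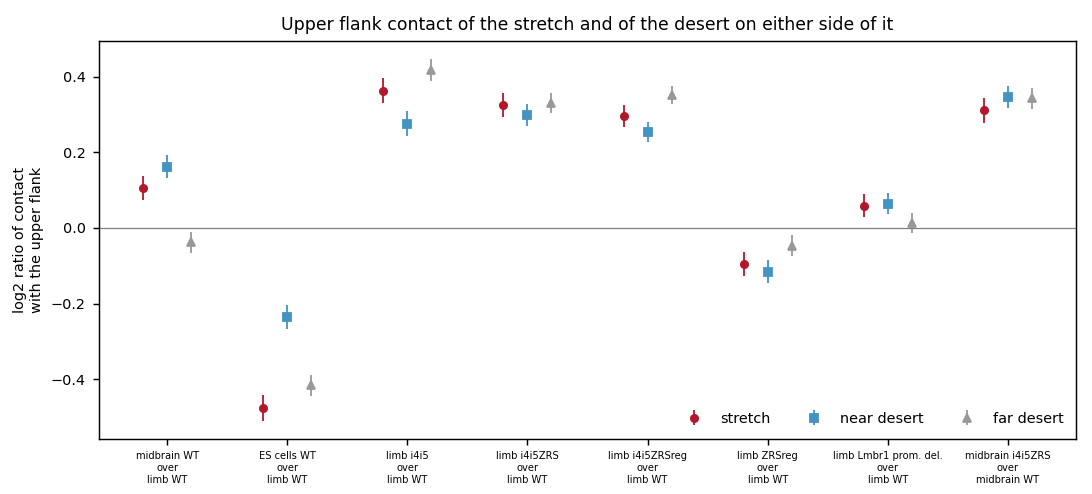
Log2 ratio of contact with the upper flank for the stretch, the near desert and the far desert, by comparison, with 95% counting intervals. In the CTCF deletions all 3 lie above 0, from 0.25 to 0.42; in ES cells over limb the stretch, at -0.47, lies lowest.

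The allele i4i5ZRS was also mapped in midbrain, where the limb enhancer is not known to act. With the upper flank the mutant had 0.851 and wild type 0.686, giving a log2 ratio of 0.31 (0.28 to 0.34). All 15 stretch bins and 49 of 50 partner bins were higher. The desert on either side gained no less with the upper flank. The near desert had 0.35, with 24 of 24 bins higher, and the far desert 0.34, with 26 of 26. The ZRS window stood at 1.42 in the mutant and 1.60 in wild type (log2 ratio -0.17, -0.23 to -0.10). The near desert had -0.16 with this window and the far desert -0.02. The Shh promoter stood at 1.70 in the mutant and 1.63 in wild type, and the interval of its log2 ratio of 0.06 (-0.02 to 0.14) included 0. Of the partner bins, 28 were higher and 5 lower, against a background of 11.7% and 5.94%. Scaled by the map-wide mean, 20 were higher and 10 lower, and past 1.5-fold the count of both directions was 4. The upper flank held 17 of the 28, near the 36.7% of such stripes in the domain as a whole. The bin at 1740 kb had the largest ratio (0.77, 0.29 to 1.26, from 95 and 61 contacts), followed by -510 kb, with 1.20 in the mutant and 0.785 in wild type. At -270 kb the mutant had 0.430 and wild type 0.588 (log2 ratio -0.45, -0.68 to -0.22).

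The i4i5ZRS ratio at the upper flank was 0.31 in midbrain and 0.32 in limb, a difference of -0.01 (-0.06 to 0.03). Below the domain the intervals of the difference lay under 0. The lower flank ratio was -0.09 in midbrain and 0.01 in limb, a difference of -0.10 (-0.14 to -0.06), and the lower far ratio was -0.10 in midbrain and 0.01 in limb, a difference of -0.11 (-0.17 to -0.06). The ZRS window differed by 0.10 (0.01 to 0.18), with the smaller loss in midbrain. Between the mutant maps themselves, the promoter met the stretch at 1.70 in midbrain and 1.42 in limb (log2 ratio 0.26, 0.17 to 0.34). The promoter ratio was alike on either side: 0.28 in the near desert, with 23 of 24 bins higher, and 0.24 in the far desert, with 21 of 26. The lower flank was 0.669 in midbrain and 0.790 in limb (log2 ratio -0.24, -0.27 to -0.21). Here 9 partner bins were higher and 21 lower in midbrain (background 4.11% and 8.56%), and 20 of the 21 lay below the lower border. With a median expected value 11 were higher and 13 lower, and the count of both directions was 17 with 19 stretch bins and 6 at 1.5-fold. The mutant maps share strain G4, so strain does not divide them.

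The ZRSreg and Lmbr1 promoter alleles were set against wild type limb as well. In ZRSreg the ZRS window stood at 1.47, against 1.48 in wild type (log2 ratio -0.00, -0.06 to 0.05), and the promoter at 1.43, against 1.46 in wild type (-0.03, -0.11 to 0.04). Contact with the upper flank was 0.597 in ZRSreg and 0.637 in wild type, giving a log2 ratio of -0.10 (-0.13 to -0.06), and 13 of 15 stretch bins were lower. With map-wide scaling the ratio was -0.17. The lower far bins stood at 0.972 in ZRSreg and 0.920 in wild type (log2 ratio 0.08, 0.05 to 0.11). Past 1.3-fold, 1 partner bin was higher and 1 lower, against a background of 1.12% and 1.51%; these were the bins at 1760 kb (50 contacts in ZRSreg and 40 in wild type) and 1550 kb (119 and 180). The count of both directions, 2, was 13 with thinned counts, 10 with counts that were not balanced, 9 with 9 stretch bins, 6 with the median over stretch bins and 0 with 19 stretch bins or at 1.5-fold. With map-wide scaling, 1 was higher and 4 lower.

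In the Lmbr1 promoter deletion the stretch met the Shh promoter at 1.59, against 1.46 in wild type, with 9 of 15 stretch bins higher. The log2 ratio, 0.12 (0.05 to 0.18), turned to -0.01 with counts that were not balanced. The near desert had the same promoter ratio, 0.12, with 18 of 24 bins higher, and the far desert had 0.04, with 15 of 26. The ZRS window stood at 1.501, against 1.48 in wild type (0.02, -0.03 to 0.07). The upper flank stood at 0.664, against 0.637 in wild type (log2 ratio 0.06, 0.03 to 0.09), and turned to -0.07 with map-wide scaling. Here 3 partner bins were higher and 2 lower, against a background of 1.63% and 1.01%. The higher ones were 1720 kb, 930 kb (0.909 against 0.673 in wild type) and 1640 kb, and the lower ones -940 and 1250 kb. The count of both directions, 5, was 20 with thinned counts, 9 with the median over stretch bins and 0 at 1.5-fold. With map-wide scaling, 0 were higher and 10 lower. Lmbr1 encodes a membrane protein and hosts the ZRS in an intron, and its promoter is the element this allele is named for. RefSeq's sequence around its start, from 250 bases before to 50 after, lies at chr5:29378341-29378640 on the minus strand in GRCm38.p6 and is printed to show how rich it is in CG, in capitals:
Lmbr1 promoter: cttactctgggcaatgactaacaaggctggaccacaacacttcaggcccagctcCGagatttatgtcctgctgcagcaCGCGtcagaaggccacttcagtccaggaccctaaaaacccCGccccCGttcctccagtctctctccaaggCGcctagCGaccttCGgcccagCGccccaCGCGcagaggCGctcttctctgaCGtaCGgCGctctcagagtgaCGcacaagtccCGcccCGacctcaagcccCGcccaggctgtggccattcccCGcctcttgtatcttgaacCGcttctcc
It holds 21 CG, against a median of 7 over the 32851 promoters of that table, and 24.8% of them hold as many or more. Its GRCm38.p6 position is not on the mm9 scale of the bins and cannot be set against them.

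With i4i5 and ZRSreg joined, the stretch had more contact with the upper flank than with ZRSreg alone. The upper flank stood at 0.783 in i4i5ZRSreg and 0.597 in ZRSreg, a log2 ratio of 0.39 (0.36 to 0.42) within strain G4. The ZRS window stood at 1.301 in i4i5ZRSreg and 1.47 in ZRSreg (log2 ratio -0.18, -0.24 to -0.12). The promoter stood at 1.23 in i4i5ZRSreg and 1.43 in ZRSreg (-0.22, -0.30 to -0.14). The near desert had -0.24 with the ZRS window and -0.14 with the promoter, and the far desert -0.09 and -0.23. Here 33 partner bins were higher and 3 lower (background 14.6% and 4.93%), with 71 and 2 under map-wide scaling and 3 in all at 1.5-fold. The bin at 1270 kb had the largest ratio, with 0.682 in i4i5ZRSreg and 0.439 in ZRSreg (0.64, 0.31 to 0.96). Against i4i5 alone, i4i5ZRSreg had slightly less contact with the upper flank (0.783 in i4i5ZRSreg and 0.820 in i4i5, log2 ratio -0.07, -0.10 to -0.03) and more with the ZRS window (1.301 in i4i5ZRSreg and 1.19 in i4i5, 0.13, 0.05 to 0.21), which turned to -0.02 with map-wide scaling. Against i4i5, i4i5ZRS had 0.798 with the upper flank, a log2 ratio of -0.04 (-0.08 to -0.00).

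As a share of all its balanced signal, the stretch kept 76.8% within the desert in ES cells, 72.8% in midbrain i4i5ZRS, 72.2% in wild type midbrain, 67.7% in i4i5 limb, 72.9% in i4i5ZRS limb, 71.2% in i4i5ZRSreg limb, 73.0% in ZRSreg limb, 73.9% for the Lmbr1 promoter deletion and 71.5% in wild type limb. The share that went above the domain was 3.68% in ES cells, 8.25% in midbrain i4i5ZRS, 6.99% in wild type midbrain, 9.92% in i4i5 limb, 7.74% in i4i5ZRS limb, 8.54% in i4i5ZRSreg limb, 6.25% in ZRSreg limb, 6.60% for the Lmbr1 promoter deletion and 6.84% in wild type limb. These shares carry no separation term. The i4i5 limb map, the shallowest, also sent the largest share below the domain, 12.4% against 10.9% in wild type limb.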

How the data were processed

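Capture Hi-C over chr5:27800001-30600000 (mm9) was deposited by the authors as 9 maps of balanced contact signal in 10 kb bins, 1 per group with samples merged, Knight-Ruiz balanced at a mapping quality of at least 30, per the deposited names. Tools listed by the submitters' processing notes are Juicer, SAMtools, Bowtie2 2.3.4.1 and cutadapt 1.15, with the build mm9. Pairs not listed were taken as 0. Contact counts were recovered from the signal by solving for each map's bin factors, and 100% of values came out whole within 0.01. On simulated maps the recovery could fail, which showed as values that were not whole. The number of unmapped sample columns was 0.

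Observed over expected was the signal of a pair over its map's mean at that separation. A stripe is 1 partner bin with the 15 stretch bins, and the background is every 15 by 1 stripe at separations of 250 to 1470 kb. A stripe past 1.3-fold was called. Intervals are 95% counting intervals from the recovered counts, and cover counting error only. With merged maps there was no spread between replicates and no test across samples. The 3 highest and 3 lowest partner bins, at least 50 kb apart, were named for each map and comparison. Members and lists were chosen with earlier results of these data known. Scripts were tested on simulated data, in Python 3.11.15 with numpy 2.4.6, pandas 2.3.3, scipy 1.17.1 and matplotlib 3.10.9. Other expected values, scalings, stretch widths, depths and control maps were tried. One ZRSreg sample carries a label spelled delta-RSreg, and it was grouped by its title. The ES cell map's deposited name differs in a library suffix from an ES sample title, and the map was taken as the merge of both ES samples, whose labels name it.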

Additional observations from a re-analysis of the deposited data

How the results depend on the processing

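No paired analysis was possible because samples were merged before deposit, and for the same reason no sample could be left out. Counts below are partner bins past the fold in either direction, ratios are log2, and the cause of each change was not tested. At 1.5-fold the counts were 44 for ES cells over limb, 0 for the Lmbr1 promoter deletion, 0 for ZRSreg, 1 for i4i5, 4 for i4i5ZRS, 0 for i4i5ZRSreg, 2 for midbrain over limb and 4 for midbrain i4i5ZRS. With 19 stretch bins ZRSreg had 0. With 9 stretch bins ZRSreg had 9, i4i5ZRS had 30, and the upper flank ratio of midbrain i4i5ZRS was 0.28. With counts thinned to the shallowest map the Lmbr1 promoter deletion had 20, ZRSreg 13, i4i5ZRS 32 and i4i5ZRSreg 28, the lower flank ratio of ZRSreg was -0.0078 and the Shh end ratio of i4i5ZRS was 0.0069. With counts that were not balanced, ES cells over midbrain had -0.028 at the ZRS window and -0.031 at the upper end. The Lmbr1 promoter deletion had -0.010 at the Shh promoter and 0.017 at the upper flank, and its stretch minus far desert difference was -0.033. That difference was -0.036 for i4i5ZRS over i4i5, the counts were 10 in ZRSreg and 38 in i4i5ZRS, the upper flank of i4i5ZRSreg was 0.33, and the lower far ratio of midbrain over limb was 0.014.

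With the Lmbr1 promoter deletion (G4) in place of wild type limb, the upper flank ratios were 0.30 for i4i5, 0.27 for i4i5ZRS and 0.24 for i4i5ZRSreg, whose count was 11. With ZRSreg (G4) in its place they were 0.46, 0.42 and 0.39, the Shh end ratio of i4i5ZRS was 0.0055, and the counts were 35 for i4i5ZRS and 36 for i4i5ZRSreg. With a median expected value they were 0.21, 0.21 and 0.17, that of midbrain i4i5ZRS was 0.23, and the count of i4i5ZRS was 10. With the median over stretch bins the counts were 9 for the Lmbr1 promoter deletion, 6 for ZRSreg and 37 for i4i5ZRS. Without bins near the borders the upper flank ratio of ES cells over limb was -0.51; no counts were made there.

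With signal over the map-wide mean, the median of all stripes was -0.54 in ES cells over limb, in place of -0.03. The upper flank ratios were then -0.86 for ES cells over limb, -0.073 for the Lmbr1 promoter deletion, -0.17 for ZRSreg, 0.54 for i4i5, 0.19 for i4i5ZRS, 0.34 for i4i5ZRSreg, 0.028 for midbrain over limb and 0.27 for midbrain i4i5ZRS. The counts were 153 for ES cells over limb, 10 for the Lmbr1 promoter deletion, 5 for ZRSreg, 85 for i4i5 and 29 for i4i5ZRSreg. Sign changes are listed only for ratios whose main interval excluded 0. These ratios changed sign: lower far in ES cells over limb (-0.57), ES cells over midbrain (-0.41), i4i5 (0.22), i4i5ZRSreg (0.059) and i4i5ZRS over i4i5 (-0.38); lower flank in ES cells over midbrain (-0.31), ZRSreg (-0.072) and i4i5ZRSreg over ZRSreg (0.024). So did the ZRS window in ES cells over midbrain (-0.020) and i4i5ZRSreg over i4i5 (-0.018), and the upper end in ES cells over midbrain (-0.039), the Lmbr1 promoter deletion (-0.17), i4i5ZRS over i4i5 (-0.22) and i4i5ZRSreg over i4i5 (-0.079). The Shh promoter did in the Lmbr1 promoter deletion (-0.083) and i4i5ZRS over i4i5 (-0.056), the Shh end in i4i5ZRS over i4i5 (-0.12) and midbrain over limb (-0.012), and the upper far bins in midbrain over limb (-0.034). The stretch minus far desert difference of i4i5ZRS over i4i5 was -0.0092. A sign change was counted only where the main interval excluded 0. Counted so, 27 of 971 ratios over all settings changed sign, and 3 of 234 differences from the neighbouring desert. Values whose main interval included 0 are in these totals but could not be counted as changed.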
